A study of Homo sapiens with 13 samples.

Results

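The zinc finger genes in the middle of the long arm of human chromosome 19 were followed through 3 treatments of HEK293T cells, a line from human embryonic kidney transformed with adenovirus DNA and later given SV40 large T antigen. The rule that picks them uses names and positions and no measured value, although the set was chosen with earlier results of these data known. A probe was taken where its listed symbol began with ZNF, ZSCAN, ZKSCAN or ZFP and a digit, or was ZIK1 or HKR1, and where its listed coordinates on build 37.1 started on chromosome 19 from 30 Mb to under 56 Mb. This gave 92 probes of 84 genes, out of 575 genes in the whole series whose names match. The brightest probe stood for each gene, and 79 of the 84 were bright enough to be tested. The 5 genes not tested were ZFP82, ZNF229, ZNF610, ZNF528 and ZNF702P.

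Most of these genes encode C2H2 zinc finger proteins with a KRAB domain. The fingers bind DNA, often in transposable elements, and the KRAB domain recruits TRIM28, which brings the methyltransferase SETDB1 and HP1 proteins and so lays down trimethylated lysine 9 of histone H3. The genes arose by tandem duplication and still lie in clusters, and the clusters on chromosome 19 are themselves known to carry this mark over the exons that encode the fingers. G9a (gene EHMT2) and GLP (gene EHMT1) work as a pair and add the mono- and dimethyl forms of the same mark, and WIZ is a zinc finger protein that binds both and helps to hold them on chromatin. Not every gene taken by the rule is of the KRAB kind. ZFP36 encodes tristetraprolin, an RNA-binding protein with CCCH fingers, and the probe listed for ZNF2 lies in the window although RefSeq (GRCh38.p14) places the gene on another chromosome.

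The treated groups and their controls were as follows. Cells given 1 µM UNC0638, a small-molecule inhibitor of G9a and GLP, for 48 h were compared with cells given the same volume of the solvent DMSO, in 5 biological replicates. Cells transfected with WIZ siRNA were set against cells transfected with control siRNA 72 h later (2 biological replicates). Cells transfected with G9a siRNA were set against control siRNA cells, also at 72 h (2 biological replicates). All groups were the unmodified line in DMEM with serum, and the siRNA groups and their controls also carried the transfection reagent. RNA was compared on 13 Agilent 2-colour arrays with probes of 60 bases. UNC0638 replicates 1 and 2 and both WIZ siRNA replicates were hybridised in both dye orientations, while UNC0638 replicates 3 to 5 and both G9a siRNA replicates were hybridised with the treated RNA in Cy5 alone.

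Values below are treated over control on the log2 scale unless another scale is named, so a ratio of -1 is a level of 50% of control. A gene is said to rise or fall where the limma test over all 28938 tested features gave a Benjamini-Hochberg adjusted p below 0.05. Precision is limited by the number of arrays. The targeted RNAs were low in their own knockdown, with WIZ at -2.26 and -1.97 in the 2 WIZ siRNA replicates and EHMT2 at -1.67 and -1.65 in the 2 G9a siRNA replicates. All 8 kidney and neural genes listed for this line were detected. UNC0638 replicate 3 stood apart. Its correlation over all features was 0.843 and 0.876 with the pair of G9a siRNA replicates, against 0.135 to 0.663 with other UNC0638 replicates, so counts are also given without it. The G9a siRNA ratios followed the GC content of the probes over 13986 features with a listed sequence (r = -0.487 and -0.506), as did those of UNC0638 replicate 3 (r = -0.431). The probes of the 79 genes have a median GC content of 40%, against 43.3% over those features.

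With UNC0638, 25 of the 79 zinc finger genes fell and 1 rose, where 1.9% of all tested features fell and 1.74% rose (3.64% in either direction). Their median was -0.24, against -0.01 over all features, and 68 of them lay below 0. The falls were moderate, and the 25 genes stood at 53.3% to 79.8% of their DMSO level. Of these 25, 23 lay below 0 in all 5 replicates and 2 in 4 of them. Without replicate 3, 34 genes fell and 1 rose, where 3.08% of all features were called, with a median of -0.28. The median of the 79 genes was -0.45, -0.39, -0.07, -0.22 and -0.24 in replicates 1 to 5. Replicate 3 was the nearest to 0 of the 5, and it held the highest value of 16 of the 25 genes that fell. Its arrays belong with replicates 4 and 5 to a set with a higher background spread. With replicates 3 to 5 alone for UNC0638, 13 genes fell and 1 rose, where 5.86% of all features were called. In replicates 1 and 2 alone 40 genes fell, where 2.57% of all features were called, with a median of -0.43. Both of these fits kept all siRNA replicates, which share in the estimate of the spread. Across the 4 dye-swapped arrays of replicates 1 and 2, 59 of the 79 genes were below 0 on every array and 1 was above 0 on every array.

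**Figure D1:**
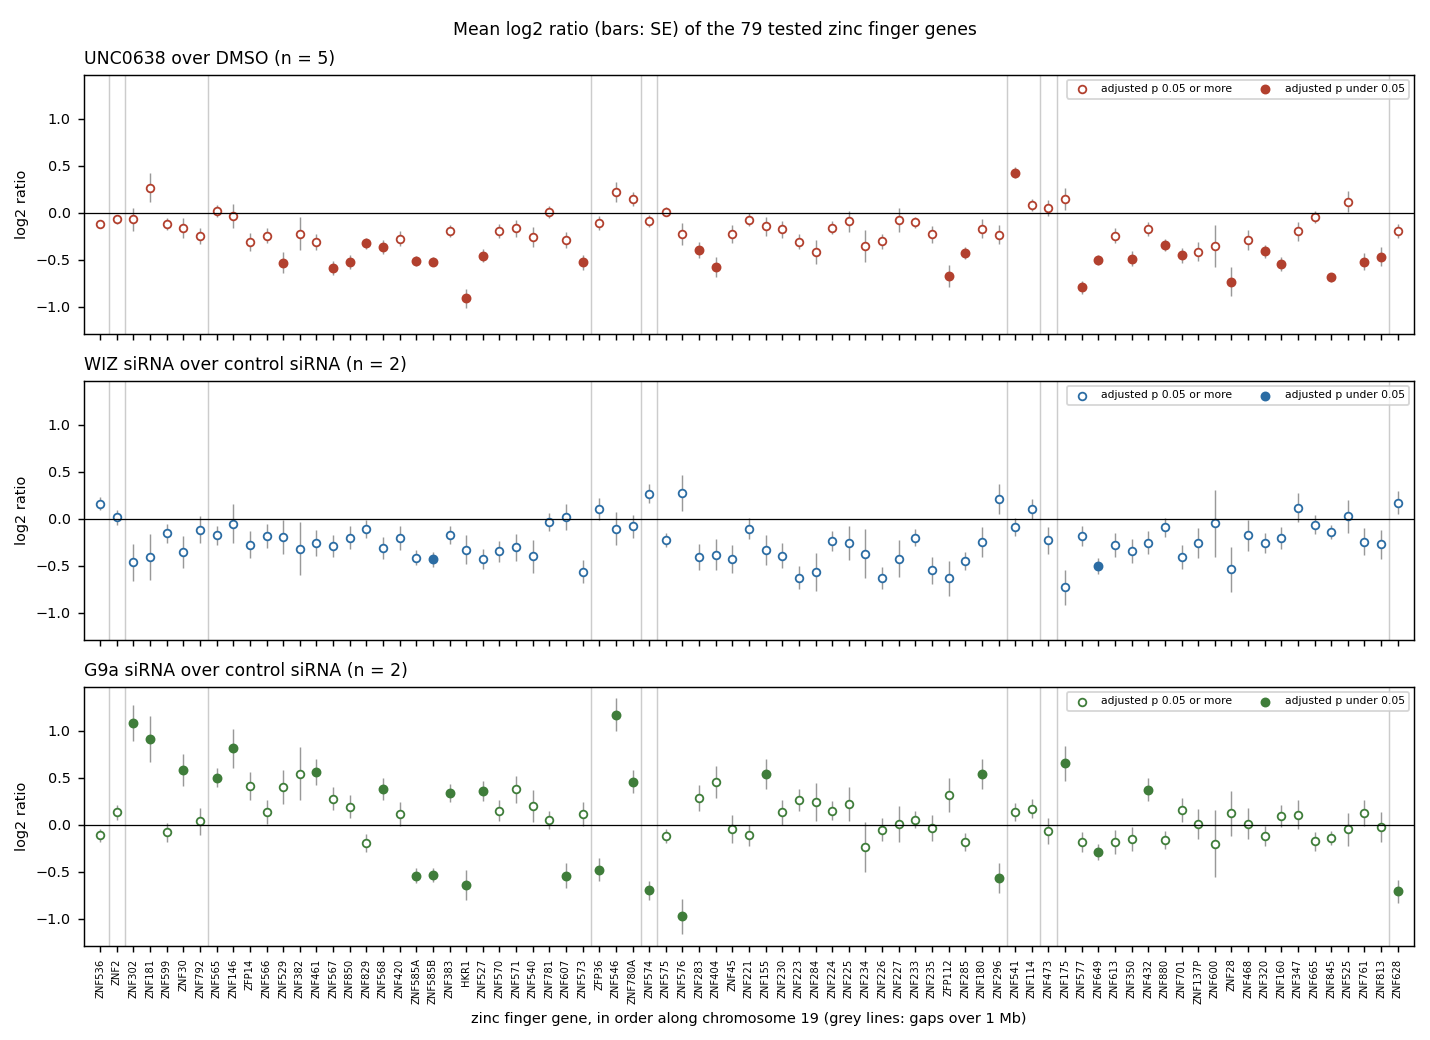
Mean log2 ratio of treated over control for each of the 79 tested zinc finger genes in their order along chromosome 19, with the SE of the fit as bars. The panels show UNC0638 over DMSO (n = 5), WIZ siRNA over control siRNA (n = 2) and G9a siRNA over control siRNA (n = 2). Filled points have an adjusted p below 0.05, and grey lines mark gaps of over 1 Mb. Filled points lie below 0 with UNC0638 apart from ZNF541, and on both sides of 0 with G9a siRNA.

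The number of falls differed between parts of the window, which is given without a test. Where a new group starts at a gap of over 1 Mb, the 84 genes form 11 groups, of which 4 hold 5 or more tested genes. In the group from ZNF565 to ZNF573 (36.7 to 38.2 Mb), 10 of 23 tested genes fell with UNC0638 and the median was -0.31. In the group from ZNF175 to ZNF813 (52.1 to 54 Mb), 11 of 20 fell and the median was -0.41. In the group from ZNF575 to ZNF296 (44 to 45.6 Mb), 4 of 21 fell and the median was -0.23. None of the 5 genes from ZNF302 to ZNF792 (35.2 to 35.4 Mb) fell, and their median was -0.12, with 1 of the 5 below 0 at an unadjusted p under 0.05. In bins of 1 Mb, the share that fell was highest between 37 and 38 Mb, where 9 of 14 genes fell and all 14 lay below 0, with a median of -0.41. Between 52 and 53 Mb 4 of 7 tested genes fell, and between 53 and 54 Mb 7 of 13. Between 44 and 45 Mb 4 of 20 fell. No gene fell in the 9 bins with 1 or 2 genes each, although ZNF541 (48 Mb) rose in one of them. This lone rise, named after its value was seen, was 0.35, 0.42, 0.52, 0.50 and 0.34 in UNC0638 replicates 1 to 5 (mean 0.42, SE 0.0583, adjusted p = 0.004248 in limma). ZNF541 is a germ cell gene whose protein works with histone deacetylases in meiosis in mice. Its probe was above background on 6 of 7 treated arrays and 5 of 7 control arrays.

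**Figure D2:**
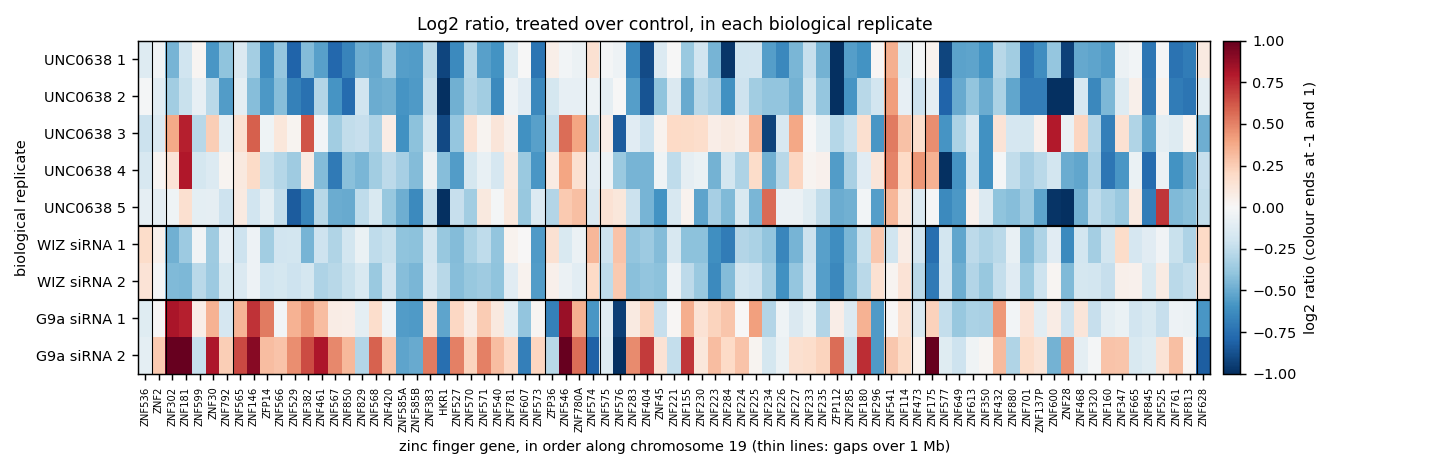
Log2 ratio of treated over control in each biological replicate (rows) for the 79 tested zinc finger genes in chromosome order (columns). Blue is below 0 and red above 0, and the colour scale ends at -1 and 1. UNC0638 replicates 1 and 2 and both WIZ siRNA replicates are blue over most of the window, UNC0638 replicate 3 is mixed, and the G9a siRNA replicates are red at the left end.

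HKR1 (now ZNF875), a KRAB zinc finger gene at 37854787 to 37854846, had the lowest mean of the 79 with UNC0638. Its ratios were -0.92, -1.08, -0.90, -0.42 and -1.22 in replicates 1 to 5, all below 0, which leaves 53.3% of the DMSO level (mean -0.91, SE 0.0992, adjusted p = 0.001225 in limma). ZNF577, a KRAB gene at 52359115 to 52359174, followed at -0.92, -0.80, -0.59, -1.02 and -0.63 (mean -0.79, SE 0.0671, adjusted p = 0.000329). It stood at 57.7% of the DMSO level, and its 5 values do not reach 0. ZNF845, a KRAB gene at 53857741 to 53857800, had the tightest replicates of the large falls, at -0.72, -0.71, -0.53, -0.77 and -0.69 (mean -0.69, SE 0.0469, adjusted p = 0.000165). Its neighbour ZNF761 at 53960813 to 53960872 lay at -0.74, -0.70, -0.13, -0.60 and -0.44 (mean -0.52, SE 0.0898, adjusted p = 0.0127). The call of ZNF761 was lost without replicate 4 (adjusted p = 0.0606), with the UNC0638 replicates fitted alone (0.0565) and in replicates 3 to 5 alone (0.0772). Replicate 3 is the highest of the 5 in both of these neighbours.

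ZNF28, another KRAB gene of the 53 Mb cluster at 53301623 to 53301682, varied most between replicates among the 25 that fell. It lay at -0.93, -1.12, -0.07, -0.49 and -1.05 in UNC0638 replicates 1 to 5 (mean -0.73, SE 0.153, adjusted p = 0.03196). Replicate 3 was close to 0 and replicates 1, 2 and 5 near -1. The call of ZNF28 was lost when replicate 1, 2, 4 or 5 was left out, with adjusted p from 0.0761 to 0.0971, and kept without replicate 3 (mean -0.90, adjusted p = 0.00385). ZFP112 (now ZNF112) at 44830924 to 44830983 was the lowest gene of the 44 Mb cluster, at -1.001, -1.02, -0.28, -0.56 and -0.50 (mean -0.67, SE 0.115, adjusted p = 0.01213). Here replicates 1 and 2, which were dye-swapped, were the lowest and replicate 3 the highest. ZNF404 at 44376817 to 44376876, in the same cluster, lay at -0.89, -0.86, -0.21, -0.46 and -0.46 (mean -0.58, adjusted p = 0.01751). Its adjusted p was 0.0549, 0.0558 and 0.0542 without replicate 1, 2 or 4.

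The remaining genes of the 12 with the lowest means lay as follows. ZNF567 at 37211954 to 37212013 lay at -0.79, -0.59, -0.35, -0.71 and -0.50 (mean -0.59, adjusted p = 0.003351). ZNF850 at 37234619 to 37234678, next to it, lay at -0.66, -0.77, -0.25, -0.42 and -0.51 (mean -0.52, adjusted p = 0.005503). ZNF573 at 38229255 to 38229314 lay at -0.73, -0.64, -0.55, -0.58 and -0.14 (mean -0.53, adjusted p = 0.006758), and here replicate 5 was the highest. All 3 genes were below 0 in every replicate. ZNF529 at 37035565 to 37035624 was not, with -0.80, -0.68, 0.03, -0.36 and -0.84 (mean -0.53, adjusted p = 0.03642). Its adjusted p was 0.0834 to 0.104 without replicate 1, 2, 4 or 5, and 0.00164 without replicate 3.

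**Figure D3:**
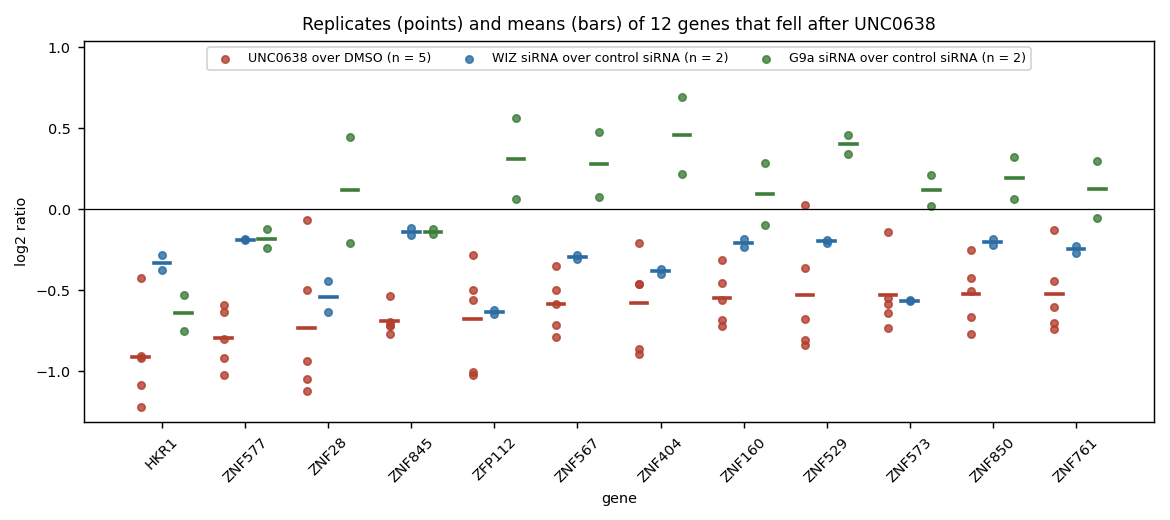
Log2 ratio of treated over control for the 12 zinc finger genes with the lowest means among those that fell with UNC0638. Points are biological replicates and short bars their means, for UNC0638 (n = 5), WIZ siRNA (n = 2) and G9a siRNA (n = 2), from left to right within each gene. The WIZ siRNA points are below 0 in all 12 genes, and the G9a siRNA points of HKR1, ZNF577 and ZNF845 are below 0 while those of ZNF404 and ZNF529 are above it.

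Some genes have more than 1 probe by the rule, and these did not always agree. ZNF160, whose protein is known to repress the receptor gene TLR4, lay at -0.56, -0.45, -0.68, -0.72 and -0.31 by its brightest probe at 53569901 to 53569960 (mean -0.55, adjusted p = 0.003934). Its other probes gave -0.04 and 0.04, and the mean over all 3 was -0.18 (adjusted p = 0.0819), so the fall is that of 1 probe. ZNF585A fell by its brightest probe (mean -0.51, adjusted p = 0.000709), while its other probe had a mean of -0.19, with 2 of 5 replicates above 0. The other probe of ZNF577 had a mean of -0.15. The ZNF585B probe (mean -0.52, adjusted p = 0.000567) is listed at 2 loci, its own and that of the neighbouring copy ZNF585A, so these values may share signal. For ZNF226 and ZNF880 the probes lay on the same side of 0, with UNC0638 means of -0.31 and -0.33 for ZNF226 and of -0.34 and -0.29 for ZNF880.

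At the upper end, ZNF181, ZNF565, ZNF575 and ZNF175 had the highest means of their position groups with UNC0638. ZNF181, a KRAB gene at 35 Mb, lay at -0.20, -0.22, 0.78, 0.80 and 0.16 (mean 0.26, adjusted p = 0.3587), with the dye-swapped replicates below 0 and the others above. ZNF565 and ZNF575 had means of 0.02 and 0.01. ZNF175, also called OTK18 and known to restrain HIV-1 in macrophages, had a mean of 0.15 (adjusted p = 0.5097). ZNF180, another KRAB gene at the 44 Mb cluster, had a mean of -0.17 (adjusted p = 0.3603). ZNF792 had the lowest mean of the 35 Mb group, at -0.25 (adjusted p = 0.1701). Brightness and the UNC0638 ratio correlated at r = -0.0951 across the 79 genes, a description over genes of the same arrays. The dimmest, ZNF665, and the brightest, ZNF525, had means of -0.05 and 0.12, neither past the test.

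The promoters of the genes that fell most are shown because the members lie in tandem copies and differ in what stands before their start sites. Of the 84 genes, 66 have a window in RefSeq (GRCh38.p14), from 250 bases before the start of the gene to 50 after it. Capitals mark matches, on either strand, to CCGGAAG (an ETS factor motif), GGGCGG (an SP1 motif) or CACGTG (an E-box), and no matches of different motifs overlapped in these windows. ZNF845 (chr19:53333499-53333798, plus strand) and ZNF761 (chr19:53431734-53432033, plus strand) are neighbours with 253 identical bases in 304 aligned columns (83.2%), against a median of 46.8% over all pairs of the windows compared. ZNF567 (chr19:36666684-36666983, plus strand) and ZNF577 (chr19:51887902-51888201, minus strand) come from different clusters, and HKR1 (chr19:37312587-37312886, plus strand) is the gene with the lowest UNC0638 ratio and holds none of these motifs.
ZNF845: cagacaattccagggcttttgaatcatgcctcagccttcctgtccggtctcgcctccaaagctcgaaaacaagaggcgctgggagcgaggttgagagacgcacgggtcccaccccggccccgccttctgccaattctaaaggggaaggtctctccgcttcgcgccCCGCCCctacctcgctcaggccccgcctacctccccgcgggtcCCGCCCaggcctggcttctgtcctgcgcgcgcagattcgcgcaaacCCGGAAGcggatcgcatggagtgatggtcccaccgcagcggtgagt
ZNF761: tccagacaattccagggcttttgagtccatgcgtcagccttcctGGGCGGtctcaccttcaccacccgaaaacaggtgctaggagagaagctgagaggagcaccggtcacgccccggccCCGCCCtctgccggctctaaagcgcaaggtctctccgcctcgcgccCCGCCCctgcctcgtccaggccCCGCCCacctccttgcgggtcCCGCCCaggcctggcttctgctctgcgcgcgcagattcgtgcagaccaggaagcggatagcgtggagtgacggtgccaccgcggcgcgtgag
ZNF567: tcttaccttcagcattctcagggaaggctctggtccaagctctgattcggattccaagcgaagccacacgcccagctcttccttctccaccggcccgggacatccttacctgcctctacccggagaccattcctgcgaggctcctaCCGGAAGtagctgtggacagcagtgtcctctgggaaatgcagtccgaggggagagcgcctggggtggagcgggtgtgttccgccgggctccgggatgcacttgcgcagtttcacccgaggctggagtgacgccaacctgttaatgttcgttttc
ZNF577: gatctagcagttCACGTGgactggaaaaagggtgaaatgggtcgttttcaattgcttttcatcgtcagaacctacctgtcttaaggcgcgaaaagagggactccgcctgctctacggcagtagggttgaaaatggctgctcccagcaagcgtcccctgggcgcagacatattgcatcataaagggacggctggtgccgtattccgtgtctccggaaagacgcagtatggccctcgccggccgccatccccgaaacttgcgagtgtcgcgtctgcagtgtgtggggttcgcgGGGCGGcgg
HKR1: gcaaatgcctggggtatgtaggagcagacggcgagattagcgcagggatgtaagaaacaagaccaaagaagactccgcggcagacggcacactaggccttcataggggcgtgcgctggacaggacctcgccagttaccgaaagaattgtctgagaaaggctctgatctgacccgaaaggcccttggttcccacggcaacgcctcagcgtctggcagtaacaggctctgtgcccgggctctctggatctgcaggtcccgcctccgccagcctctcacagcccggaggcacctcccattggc

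In the 2 neighbouring genes the SP1 motif stands in repeated copies, while the ETS motif is present in ZNF845 and absent from ZNF761. Both fell with UNC0638. Over the 66 windows, 25 hold the ETS motif (37.9%), against 10.3% of all 35116 RefSeq windows of the same length. The SP1 motif was in 34 of the 66 (51.5%), against 45% of all, and the E-box in 4.55%, against 7.26% of all. The letters TATAAA, the core of a promoter element found before many regulated genes, were in none of the 66 and in 11.5% of all windows. The windows were rich in CpG, with a median of 23 CpG dinucleotides against 14 over all windows. Of 24 tested genes with the ETS motif 11 fell with UNC0638 (median -0.32), and of 39 without it 12 fell (median -0.24). Promoter GC content, set against the ratio over 63 tested genes, gave r = 0.191 (rho = 0.0879) for UNC0638, r = 0.453 (rho = 0.486) for WIZ siRNA and r = 0.0314 (rho = 0.107) for G9a siRNA. These are descriptions over genes that share arrays and partly share sequence.

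With WIZ siRNA most of the zinc finger genes lay below 0, but few passed the test. The median of the 79 was -0.26, against 0.01 over all features, and 68 of them lay below 0. In limma 2 genes fell and none rose, where 0.536% of all features fell and 0.0795% rose, and at an unadjusted p under 0.05 the counts were 27 below 0 and 2 above. The 2 replicates had medians of -0.25 and -0.24, where UNC0638 replicates 1 and 2, on arrays of the same set, had -0.45 and -0.39. In the WIZ siRNA replicates 64 genes were below 0 in both of them and 9 above 0 in both. The calls did not hold with 1 of the 2 replicates left out. Such a fit has 1 WIZ siRNA sample and called fewer of all features too.

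The genes that fell with WIZ siRNA were ZNF649 and ZNF585B. ZNF649, a KRAB gene at 52392549 to 52392608 whose protein is known to dampen transcription from serum response elements, lay at -0.52 and -0.49 (mean -0.50, SE 0.0846, adjusted p = 0.03663 in limma). Its 4 arrays were below 0 but differed by dye: the arrays with WIZ siRNA RNA labelled with Cy3 gave -0.90 and -0.73, and those with it in Cy5 gave -0.14 and -0.25. ZNF585B lay at -0.41 and -0.46 (mean -0.43, SE 0.0761, adjusted p = 0.04535), with -0.22 and -0.35 in Cy3 and -0.60 and -0.57 in Cy5. With the dye effect subtracted, the adjusted p was 0.0604 for ZNF649 and 0.131 for ZNF585B. The means cannot change there, because the subtracted effect cancels between the swapped arrays of each replicate. ZNF175, ZFP112 and ZNF226 had the lowest means with WIZ siRNA, and none of them passed the test. ZNF175 lay at -0.75 and -0.70 (mean -0.73, adjusted p = 0.1901), ZFP112 at -0.62 and -0.65 (mean -0.64, adjusted p = 0.2562), and ZNF226 at -0.65 and -0.61 (mean -0.63, adjusted p = 0.06372). ZNF226, a KRAB gene of the 44 Mb cluster, lay at -1.21 and -1.08 in Cy3 and at -0.10 and -0.14 in Cy5, and its adjusted p was 0.0167 with the dye effect subtracted.

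By position, the WIZ siRNA medians were -0.38 over the 21 tested genes of the 44 Mb group, -0.36 over the 5 at 35 Mb, -0.28 over the 23 from 36.7 to 38.2 Mb and -0.25 over the 20 from 52.1 to 54 Mb. The 44 Mb group, which had a UNC0638 median of -0.23, was thus the lowest of the 4 with WIZ siRNA. Of the 25 genes that fell with UNC0638, all 25 lay below 0 with WIZ siRNA, with a median of -0.33. The 2 comparisons share no RNA by their labels. Over the 79 genes, 59 lay below 0 in both, and 38 had a lower mean with WIZ siRNA than with UNC0638. Within the first array set, which holds WIZ siRNA and UNC0638 replicates 1 and 2, 19 of the 79 were lower with WIZ siRNA, and the median of WIZ siRNA minus UNC0638 was 0.16, against 0.02 over all features.

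**Figure D4:**
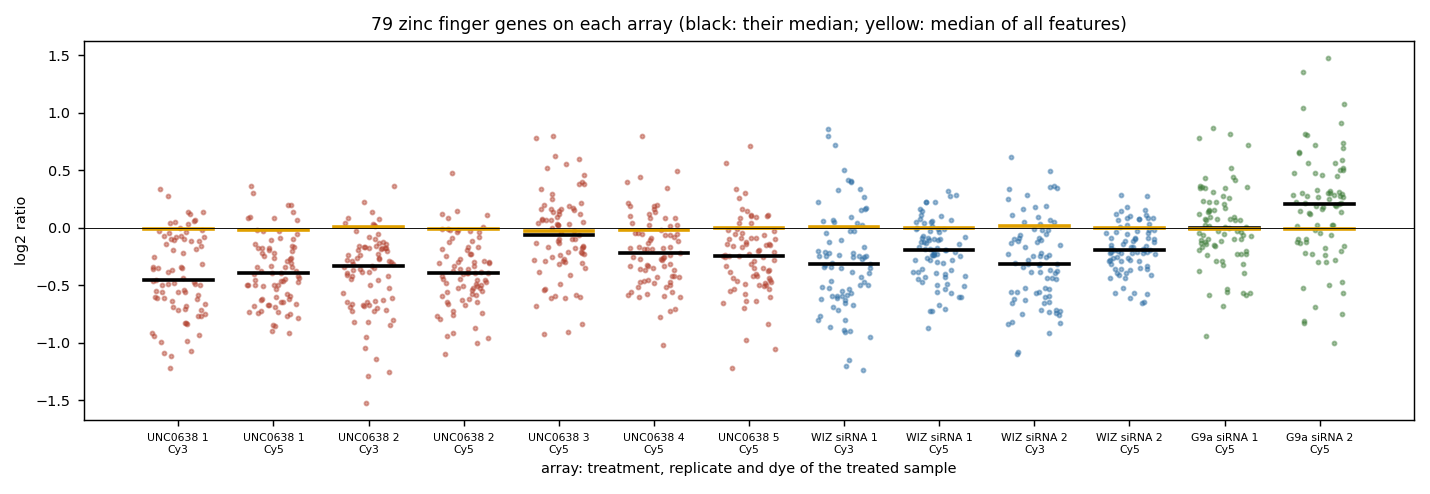
Log2 ratios of treated over control of the 79 zinc finger genes (points) on each of the 13 arrays, labelled by treatment, replicate and dye of the treated RNA. Black lines are the median of the 79 genes and yellow lines the median of all features. The black line lies below the yellow on every UNC0638 and WIZ siRNA array, nearest to it for UNC0638 replicate 3, and above it on both G9a siRNA arrays.

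With G9a siRNA the zinc finger genes moved both ways. In limma 15 of the 79 rose and 10 fell, where 15% of all features rose and 18.2% fell, so the share of the 79 that was called (25 genes) is close to that over all features (33.2%). The median was 0.12, against -0.01 over all features, and the 2 replicates had medians of 0.00 and 0.20. In both replicates 35 genes were above 0 and 22 below 0. Not all calls held with 1 replicate left out, in a fit with 1 G9a siRNA sample that called fewer of all features too. The median was then 0.20 without replicate 1 and 0.00 without replicate 2. Of the 79 genes, 12 were not well above background in the G9a siRNA RNA on either array, and 8 were not in the control RNA. None of these genes was called. The 15 that rose have probes of 35% to 45% GC, and 6 of the 10 that fell have probes of 46% GC or more, like the trend over all features. With that trend removed, 9 genes rose and 10 fell, where 45% of the 13986 features with a sequence were called, and the median was 0.01.

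The highest means with G9a siRNA were as follows. ZNF546, a KRAB gene at 40523077 to 40523136 lay at 0.87 and 1.48 in the 2 replicates (mean 1.17, SE 0.173, adjusted p = 0.003). ZNF302 at 35176592 to 35176651 lay at 0.81 and 1.36 (mean 1.08, adjusted p = 0.004143). ZNF181 at 35232971 to 35233030, its neighbour, lay at 0.78 and 1.04 (mean 0.91, adjusted p = 0.01915). Replicate 2 was the higher in all of these. ZNF146 at 36728855 to 36728914, whose protein consists of zinc fingers alone, had a mean of 0.81 (0.72 and 0.91, adjusted p = 0.01534), ZNF175 of 0.65 (0.23 and 1.07), ZNF30 of 0.58 (0.35 and 0.81) and ZNF461 of 0.56 (0.31 and 0.81). ZNF180 and ZNF565 had means of 0.54 and 0.50, and both rose. With the GC trend removed ZNF546 stood at 0.90, ZNF302 at 0.93, ZNF181 at 0.64, ZNF146 at 0.60, ZNF175 at 0.72 and ZNF461 at 0.50, all with an adjusted p below 0.05, and ZNF565 did too, at 0.50. The calls of ZNF30 (0.37, adjusted p = 0.051) and ZNF180 (0.27, adjusted p = 0.0931) were then lost. ZNF180 stood at 0.35 with the dye effect subtracted (adjusted p = 0.0751) and at 0.17 with both removed (adjusted p = 0.24). That dye effect was measured on the swapped UNC0638 and WIZ siRNA arrays, not on G9a siRNA arrays.

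The 5 lowest means with G9a siRNA were those of ZNF576, ZNF628, ZNF574, HKR1 and ZNF296. ZNF576 at 44103327 to 44103386 lay at -0.94 and -1.003 (mean -0.97, SE 0.187, adjusted p = 0.005123). ZNF628 at 55995696 to 55995755, whose mouse counterpart is a transcriptional activator in spermatids, lay at -0.58 and -0.83 (mean -0.70, adjusted p = 0.003935). ZNF574 at 42585435 to 42585494 lay at -0.58 and -0.81 (mean -0.70, adjusted p = 0.003097). These genes and ZNF296 (mean -0.57, adjusted p = 0.02453) have probes of 53.3% or 55% GC, and with the GC trend removed they stood at -0.55, -0.33, -0.28 and -0.19, the last with an adjusted p of 0.267. HKR1 lay at -0.53 and -0.75 (mean -0.64, adjusted p = 0.01323), and its probe has 41.7% GC. With the GC trend removed HKR1 stood at -0.70. By position, 3 of the 5 genes at 35 Mb rose and none fell (median 0.58), and 6 rose and 4 fell of the 23 from 36.7 to 38.2 Mb (median 0.20). In the 44 Mb group 2 rose and 2 fell (median 0.06), and from 52.1 to 54 Mb 2 rose and 1 fell (median -0.04).

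Across the 3 comparisons, 45 of the 79 genes were called at least once. Over all features, 3.64% were called with UNC0638, 0.615% with WIZ siRNA and 33.2% with G9a siRNA. ZNF649 and ZNF585B fell in all 3, with G9a siRNA means of -0.29 and -0.53. ZNF585A and HKR1 fell with UNC0638 and with G9a siRNA. ZNF568, whose mouse counterpart silences a placental Igf2 transcript, and ZNF527 fell with UNC0638, with means of -0.36 and -0.46, and rose with G9a siRNA, with means of 0.38 and 0.36. Both rises were lost with the GC trend removed, where ZNF568 stood at 0.29 (adjusted p = 0.0522) and ZNF527 at 0.21 (adjusted p = 0.11). With dye and GC both removed ZNF527 stood at 0.00 (adjusted p = 0.979) and ZNF568 at 0.26 (adjusted p = 0.0774). The fall of ZNF568 with UNC0638 was lost in 7 of 23 alternatives, with adjusted p up to 0.121. With the other probe of ZNF585A the siRNA means were 0.07 for WIZ and 0.10 for G9a. A further 19 genes fell with UNC0638 alone, 13 rose with G9a siRNA alone, 6 fell with G9a siRNA alone and 34 were called in none. The same split was not counted over all features, so it is not read as particular to the 79 genes. Over the 25 genes that fell with UNC0638, the G9a siRNA median was 0.09 and 12 lay below 0.

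The differences between treatments were tested as contrasts in the same fit. WIZ siRNA minus UNC0638 differed for 1 of the 79 genes, which lay above 0, against 0.84% of all features (0.0933% above 0 and 0.746% below). ZNF845 lay at -0.14 with WIZ siRNA and -0.69 with UNC0638, a difference of 0.55 (SE 0.0878, adjusted p = 0.02538 in limma). For ZNF649 the difference was 0.00, with a 95% interval of -0.23 to 0.23, and for ZNF585B 0.09, with an interval of -0.12 to 0.29. For ZNF577 it was 0.61 (interval 0.32 to 0.89, adjusted p = 0.07259). Over the arrays of the first set alone, which hold WIZ siRNA and UNC0638 replicates 1 and 2, 12 genes were higher with WIZ siRNA and 2 lower, where 4.57% of all features were called. The higher ones included ZNF577 and HKR1 (both 0.67) and ZNF845 (0.58), and the lower ones were ZNF175 (-0.70) and ZNF541 (-0.47). The times differ, at 72 h and 48 h, and lie within every such difference.

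G9a siRNA minus UNC0638 was above 0 for 25 genes and below 0 for 2, where 6.07% and 6.57% of all features were called. The largest were ZNF302 (1.08 with G9a siRNA and -0.07 with UNC0638, difference 1.15, adjusted p = 0.02261), ZNF404 (0.46 and -0.58, difference 1.04, adjusted p = 0.02146) and ZFP112 (0.31 and -0.67, difference 0.99, adjusted p = 0.0258). The negative ones were ZNF574 (-0.61) and ZNF628 (-0.51). These counts rest on the replicates included. They were 44 without UNC0638 replicate 3, where 28% of all features were called, against 12.6% with all replicates. Without replicates 1, 2 and 4 they were 9, 8 and 10, where 3.94%, 3.16% and 2.82% of all features were called. Without G9a siRNA replicate 1 or 2 the median difference over the 79 genes was 0.48 or 0.31, against 0.32 with both. Such a fit holds 1 G9a siRNA sample, so the calls were not shown to hold without either G9a siRNA replicate. Over the arrays of the second set alone, which hold G9a siRNA and UNC0638 replicates 3 to 5, no gene passed the test, and nor did any of all 28938 features. There the differences were 0.93 for ZNF302, 0.84 for ZNF404 and 0.76 for ZFP112 (adjusted p = 0.232 each), and the median over the 79 genes was 0.27, against -0.01 over all features.

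WIZ siRNA minus G9a siRNA was below 0 for 22 genes and above 0 for 5, where 8.88% and 10.9% of all features were called (19.8% in all). ZNF302 differed most (-0.46 with WIZ siRNA and 1.08 with G9a siRNA, difference -1.55, adjusted p = 0.01106). ZNF175 (-1.38, adjusted p = 0.01316), ZNF181 (-1.32, adjusted p = 0.02949) and ZNF546 (-1.28, adjusted p = 0.01295) followed, and ZNF576 differed the other way (1.25, adjusted p = 0.01605). Each siRNA lies in 1 array set and in 1 pattern of dyes, so set and treatment cannot be told apart here. The labels do not say whether both siRNAs were set against the same control RNA. The calls did not hold when WIZ siRNA replicate 1, WIZ siRNA replicate 2 or G9a siRNA replicate 2 was left out. These fits have 1 sample in that arm and called fewer of all features too. Their median differences over the 79 genes were -0.32, -0.34 and -0.22 in that order, against -0.33 with all replicates.

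The neighbours that are not zinc finger genes were set beside the 79. Of 302 other tested genes in the same window 7 fell and 5 rose with UNC0638, with a median of -0.05. The 3 largest called changes among them were CYP2F1, a cytochrome P450 gene (1.31, adjusted p = 0.00182), CD33, a lectin gene of myeloid cells (1.04, adjusted p = 0.0001753), and LOC100506930, a locus inside the 36.7 to 38.2 Mb zinc finger group (-0.79, adjusted p = 0.0008012). With WIZ siRNA 1 of the 302 fell and 1 rose (median 0.02), and with G9a siRNA 125 fell and 10 rose (median -0.20). Among the other zinc finger genes on chromosome 19, 16 of 35 fell and none rose with UNC0638 from 56 Mb on (median -0.31), and 8 of 47 fell and none rose below 30 Mb (median -0.17). Of 213 on other chromosomes 13 fell and 3 rose (median -0.02). The genes from 56 Mb on also lay low with G9a siRNA, where 17 fell and 2 rose (median -0.34), against a median of 0.12 for the 79 genes of the window. These are counts beside each other and no test was made between the sets. Probe GC was not compared between the sets, and its part in the G9a siRNA values was not tested. With the GC trend removed the G9a siRNA median of the 79 genes was 0.01.

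**Figure D5:**
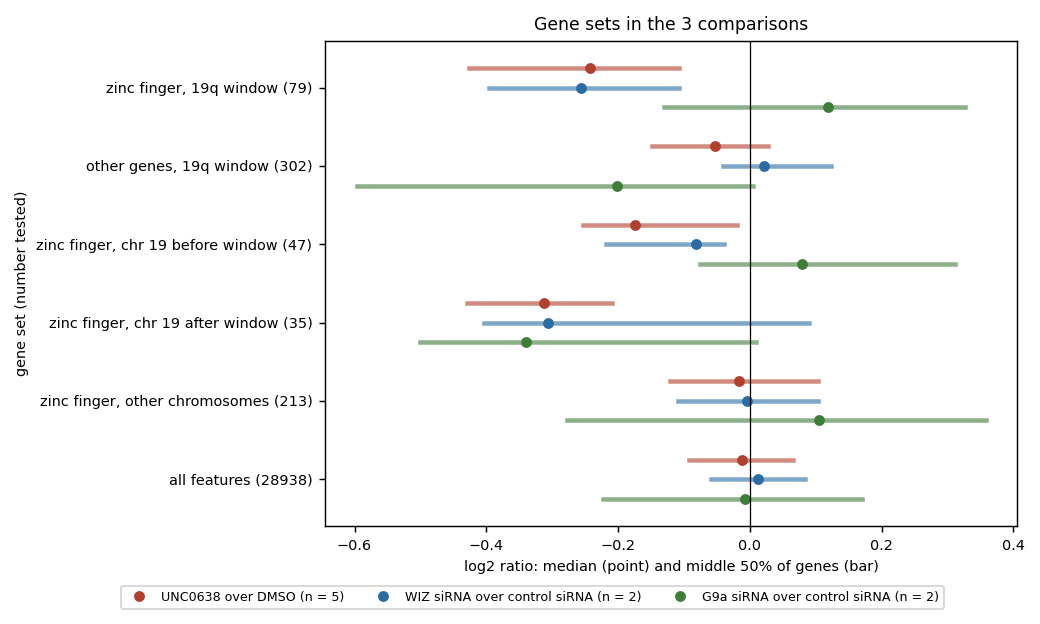
Median log2 ratio of treated over control (points) and middle 50% of genes (bars) in 6 gene sets, with the number tested in brackets, for UNC0638, WIZ siRNA and G9a siRNA from top to bottom within each set. The zinc finger genes of the window lie at -0.24, -0.26 and 0.12, the other genes of the window at -0.05, 0.02 and -0.20, and all features near 0.

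Probe GC content moved with the ratios, so the genes were also set beside features of like GC. Among probes under 38% GC, the 22 zinc finger genes had medians of -0.55, -0.46, 0.01, -0.20 and -0.17 in UNC0638 replicates 1 to 5, which is 0.53, 0.47, 0.18, 0.26 and 0.26 below the median of all features of that class. In replicate 3 the features of this class lay at 0.19. For the 30 genes from 38% to under 42% GC the medians lay below the class by 0.53, 0.51, 0.20, 0.34 and 0.29. The gap was smaller for the 20 genes from 42% to under 46% GC, whose medians differed from the class by -0.19, -0.19, 0.05, -0.19 and -0.23, so that they lay above it in replicate 3. The 7 genes of 46% GC or more differed from their class by -0.02, -0.06, -0.28, -0.06 and -0.15 in the UNC0638 replicates, and by 0.15 and 0.10 in the WIZ siRNA replicates. With the GC trend removed, 34 genes fell and 1 rose with UNC0638 (median -0.25), and 6 fell with WIZ siRNA (median -0.26). This fit holds the 13986 features with a sequence, of which 5.95% were called with UNC0638 and 1.42% with WIZ siRNA. Over the same features with the trend left in, 26 and 2 genes fell, where 5.35% and 0.937% were called.

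Among the corepressors and heterochromatin partners of these proteins, 2 of 41 listed genes, all tested, passed the test with UNC0638. This is close to the share over all features (3.64%). TASOR of the HUSH complex rose (0.33, adjusted p = 0.03214) and MORC2, which works with that complex, fell (-0.28, adjusted p = 0.04682), and the list median was -0.03. TRIM28 lay at -0.10 and SETDB1 at -0.03, neither past the test. With WIZ siRNA the targeted WIZ alone fell, and the list median was 0.02. With G9a siRNA 15 rose and 7 fell (median 0.27), where 15% of all features rose and 18.2% fell. The 7 include the targeted EHMT2 (mean -1.66) and TRIM28, which lay at -0.56 and -0.83 (mean -0.70, adjusted p = 0.002913). The TRIM28 probe has 48.3% GC. The part of probe GC in these values was not tested for single genes of the list.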

How the data were processed

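Spot and local background intensities were deposited by the authors as pixel brightness per channel with no correction, per the file headers. A log2 ratio per spot stands beside them, background-subtracted and normalized by intensity by the authors, per the file headers. A table of log10 ratios for the whole series was also deposited by the authors. Set against each array's own ratio turned to treated over control, 8 of its columns ran as control over treated (r -0.877 to -0.918) and 5 as treated over control (r 0.925 to 0.971), with slopes of 0.301 to 0.432 in size and column medians from -0.01 to 0.00818. It was turned accordingly, and its centring stays unknown. Image software, slide and scan batch are not given in the sources used here.

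Intensities were corrected with normexp (offset 50) and loess within array in limma 3.58.1 (R 4.3.3). Arrays were turned to treated over control by their dye labels, and swapped arrays of the same RNA were averaged. A probe counted as well above background at 2.6 background SDs and was kept where this held on 50% of the arrays of at least 1 RNA group (34619 of 42405 probes), and the brightest probe of each gene was tested. All 9 biological replicates entered 1 fit (lmFit, eBayes, 6 residual and 3.33 prior degrees of freedom), so the spread used for each siRNA pair comes mostly from UNC0638. P-values were adjusted by Benjamini-Hochberg over 28938 features. Median spot brightness was 194 to 415 in Cy3 (local background 28 to 30) and 151 to 638 in Cy5 (local background 45 to 68).

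The planned batch was the slide. Without it, arrays were split into 2 sets by the spread of the Cy3 background: UNC0638 replicates 1 and 2 with WIZ siRNA, and UNC0638 replicates 3 to 5 with G9a siRNA. The fit was first tested on simulated data with known changes. Alternatives covered the background correction, normalization, filters, probe choice, dye, GC content, array set, array weights, a replicate block and each replicate left out. The dye effect was estimated per probe on the swapped arrays of UNC0638 replicates 1 and 2 and WIZ siRNA, all in the first set. It was subtracted from every array, including the unswapped arrays of the second set. Promoter windows are those of RefSeq, read in Python 3.11.15 with Biopython 1.88, and no protein sequences were used here.

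Genes were named where called (up to 12 by size for UNC0638 and G9a siRNA and 8 for WIZ siRNA), called in more than 1 comparison or in a difference, lowest or highest of a position group, of opposite sign by probe, dimmest or brightest, or listed in advance (HKR1, ZNF331, ZNF180, ZNF112). Where fewer than 3 were called, the 3 of largest size were named. The members and lists were chosen with earlier results of these data known.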

Additional observations from a re-analysis of the deposited data

Results flagged for a closer look

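ZNF525, the brightest of the 79 genes, had 1 UNC0638 replicate far from the others. Replicate 5 lay at 0.71, and replicates 1 to 4 at -0.01, 0.04, -0.10 and -0.06. This was the only such gap among 36 items tested (named genes and the median of the 79), and chance gives about 1 in 20.

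Of the 27 genes whose response differed between WIZ siRNA and G9a siRNA by the test of the difference in limma, 5 had the largest size. ZNF302 (-1.55), ZNF175 (-1.38), ZNF181 (-1.32) and ZNF546 (-1.28) were lower with WIZ siRNA, and ZNF576 (1.25) was higher. Their probes have 38.3%, 45%, 35%, 35% and 55% GC in that order, and the arrays of the siRNAs lie in different sets. Of the 27 that differed between G9a siRNA and UNC0638, ZNF302 (1.15), ZNF404 (1.04) and ZFP112 (0.99) had the largest size and were higher with G9a siRNA. Within the second array set the same differences were 0.93, 0.84 and 0.76, past no threshold (adjusted p = 0.232 each). The part of array set, dye and probe GC in these differences was not tested gene by gene.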

How the results depend on the processing

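No called mean of a named gene, and none of the differences flagged above, changed its sign under the alternatives. Means that were not called could change sign. With G9a siRNA, ZNF575 stood at -0.12 in the main fit and at 0.30 with the GC trend removed. Genes outside the 79 and the called differences of ZNF845, ZNF574 and ZNF628 were not recomputed one by one. With UNC0638, where 3.64% of all features were called in either direction, the 25 falls became 16 in the authors' log10 table (2.56% called). There 72 of the 79 genes have values. The falls became 13 with the UNC0638 replicates fitted alone (1.46%), 40 with replicates 1 and 2 alone (2.57%) and 13 with replicates 3 to 5 alone (5.86%). They became 17 to 34 when 1 replicate was left out (2.11% to 3.08%). The median of the 79 genes ranged from -0.28 to -0.21 without 1 replicate, and was -0.43 in replicates 1 and 2 alone. The 2 falls with WIZ siRNA became 0 with no background correction (0.467% of all features called), with the authors' log2 ratio (0.104%) and in their log10 table (0.261%). They became 1 with probes well above background on all arrays (0.996%) and 1 without probes of several symbols (0.603%). With the WIZ siRNA replicates alone 55 fell and with array weights 54, where 23.7% and 20.9% of all features were called, against 0.615%. With the GC trend removed 6 fell and with dye and GC both removed 5, where 1.42% and 1.07% of the features with a sequence were called. The WIZ siRNA median was -0.29 by the authors' log2 ratio and -0.33 by their log10 table, -0.24 with no filter, -0.25 with the mean of all probes, -0.24 with a replicate block, and -0.25 to -0.24 without 1 replicate. For G9a siRNA not all of the 10 falls and 15 rises held without 1 replicate, and the median was 0.00 to 0.21. The rises became 9 with the GC trend removed (45% of the features with a sequence called). They were also 9 with dye and GC both removed (37.4%). The differences were the least stable. WIZ siRNA minus UNC0638 (1 gene, with 0.84% of all features called) gave 0 with the authors' log2 ratio (0.252%) and 2 with the dye effect subtracted (0.625%). It gave 13 with array weights (8.05%) and 3 with dye and GC removed (1.19% of the features with a sequence). Within the first array set it gave 14 (4.57%), and without 1 UNC0638 replicate 0 to 2 (0.491% to 1.22%). G9a siRNA minus UNC0638 (27, with 12.6% of all features called) gave 15 by the authors' log2 ratio (5.45%) and 10 by their log10 table (3.74%). It gave 43 with array weights (26.7%) and 0 within the second array set (0%). It gave 8 to 44 without 1 UNC0638 replicate, where 2.82% to 28% of all features were called. WIZ siRNA minus G9a siRNA (27) gave 13 by the authors' log2 ratio, 13 by their log10 table, 44 with array weights, 15 with dye and GC removed and 0 to 20 without 1 replicate. Same-numbered replicates of different groups deviated together at r from -0.287 to 0.366. With 2 replicates per siRNA the deviations mirror each other, so these values cannot decide whether the numbers pair replicates. The numbers were not taken to pair them. A replicate block (correlation 0.0866) gave 25 falls and 1 rise with UNC0638, 2 falls with WIZ siRNA, 16 rises and 10 falls with G9a siRNA, and 1, 30 and 30 called differences in the order above. Array weights and fits on a comparison's own replicates draw the spread of the 2 siRNA replicates from themselves, and their other causes were not tested. The alternatives with dye and GC removed together, within array sets and without ZNF2 and ZFP36 (which left every count within 1.5 times) were chosen after seeing the data. HKR1, ZNF527, ZNF567, ZNF577, ZNF585B, ZNF845 and ZNF850 kept their UNC0638 calls under every alternative run on them. Precision is limited by 2 replicates per siRNA, whose spread is taken largely from UNC0638, and by probes near background, whose ratios are compressed. A fit that leaves out a siRNA replicate has 1 sample in that arm, assumed to vary like the others.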

Other observations

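A further 24 tested zinc finger genes have probes with no listed coordinates, but lie between the first and the last member in the RefSeq order (GRCh38.p14). They were not used above, so the counts by position leave them out. The share that fell with UNC0638 was 58.3% of them, against 31.6% of the 79 genes. With UNC0638 14 of the 24 fell and none rose (median -0.37), among them ZNF569 at -0.69, -0.44, -0.38, -0.97 and -0.92 in replicates 1 to 5 (mean -0.68, adjusted p = 0.003356 in limma) and ZNF345 (mean -0.64, adjusted p = 0.004511). ZNF331, an imprinted zinc finger gene, lay at -0.88, -0.35, -0.70, -0.57 and -0.21 (mean -0.54, adjusted p = 0.01104). With WIZ siRNA 1 of the 24 fell, ZNF790 (-0.58 in each replicate, adjusted p = 0.03663), and the median was -0.29. With G9a siRNA 3 rose and 1 fell (median 0.11). ZNF569, ZNF345 and ZNF790 were named after their values were seen.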
